A study of Mus musculus with 8 samples.

Results

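Genes for the growth and stability of blood vessels are described here in epididymal white adipose tissue from male mice. They are the vascular endothelial growth factor genes Vegfa, Vegfb, Vegfc and Pgf, the angiopoietin genes Angpt1, Angpt2 and Angpt4, the receptor genes Tek and Tie1, and the angiopoietin-like gene Angptl2. The 10 genes were chosen with earlier results of these data known. All 10 were found by symbol among the 28295 genes in the deposited table of expression values. All passed the filter on low values, a mean of at least 0.5 over all 8 libraries. Angpt4 passed it only through the libraries of the KO group described below. The mice had been fed a Western diet for 8 weeks and were fasted for 6 h before the fat was taken, with no age stated in the labels. The WT group (4 libraries) carried Cul3-flox/flox alleles, and the KO group (4 libraries) carried the same floxed alleles with AdipoQ-Cre. The Adipoq promoter drives Cre in adipocytes, so that endothelial and stromal cells of the same fat are not its targets. Cul3 encodes cullin 3, a ubiquitin ligase scaffold.

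VEGF ligands and angiopoietins act on endothelial cells through separate receptor families. Vegfa signals through the receptors encoded by Flt1 and Kdr, Vegfb and Pgf bind the Flt1 product, and Vegfc and Vegfd act through the Flt4 product, mainly in lymphatic vessels. The angiopoietins bind the receptor TIE2, encoded by Tek. Angpt1 is its stabilizing agonist, Angpt2 is an antagonist or a weak agonist depending on context, Angpt4 is a further TIE2 ligand, and Tie1 encodes a co-receptor that modulates TIE2. In fat, adipocytes are a known source of Vegfa and Vegfb.

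Values are FPKM, fragments per kilobase of gene scaled to sequencing depth, so levels of different genes can be set side by side. Recovered depth was 15168500 to 19683700 reads in listed genes per library. The targeted gene Cul3 was not lower where its loss is labelled (9.66 to 12.4 FPKM in WT, 10.6 to 13.2 FPKM in KO, log2 fold change 0.09 ± 0.10, limma adjusted p = 0.520). Its whole-gene level thus gives no check on the labels, so the second group is called KO-labelled and every direction below rests on the labels. Across 14400 genes tested with limma (adjusted p under 0.05), 1689 were higher and 2683 lower in the KO-labelled libraries, against 4226 and 1190 when each library was scaled to a sum of 1000000. Over all genes the log2 fold change had a median of -0.02 as deposited and 0.24 under that scaling. As deposited, the FPKM of a library summed to 175006 to 234141. Scaling to 1000000 therefore also makes the 0.5 added before the log2 smaller beside each value, which enlarges fold changes of low genes. Adipocyte markers summed to 4302 to 5891 FPKM in WT, against 1800 to 2430 FPKM in KO-labelled libraries, with 9 of 9 markers lower. Endothelial markers summed to 356 to 501 and 233 to 284 FPKM, with 12 of 15 lower and none higher. In bulk fat, fewer cells of a type and less RNA per cell cannot be told apart.

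Some libraries stood apart. WT4 had the highest macrophage marker sum of its group (1118 FPKM, against 350.2 to 441 in WT1 to WT3) and the lowest endothelial sum (356 against 484 to 501). In the KO-labelled libraries the macrophage sum was 463 (KO4) to 1065 FPKM. Liver markers were high in WT2 (499 FPKM) and WT1 (134) and 5.28 to 37.0 FPKM elsewhere, and epididymis markers were high in KO1 (214) and WT2 (53.2) and at most 8.43 FPKM elsewhere. The part of this RNA in the values below was not tested, beyond fits that leave the libraries out.

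The members were selected from results of this same comparison. Their differences between the groups are therefore given as a description, with no p. Of the 10 members, 6 were called, beside 30.4% of all genes tested. These were 2 called higher and 4 called lower, beside 11.7% and 18.6% of all genes, and the groups did not overlap for 6 members, beside 31.2% of all genes. Nothing is read from these counts, and Angpt4 entered them only through the KO-labelled group. Its WT mean of 0.164 FPKM was below the filter, and its KO-labelled mean was 7.03 FPKM. The median log2 fold change of the members was -0.10. Under the sum scaling 4 members were called higher and 2 lower, beside 4226 and 1190 of the 14400 genes tested.

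**Figure D1:**
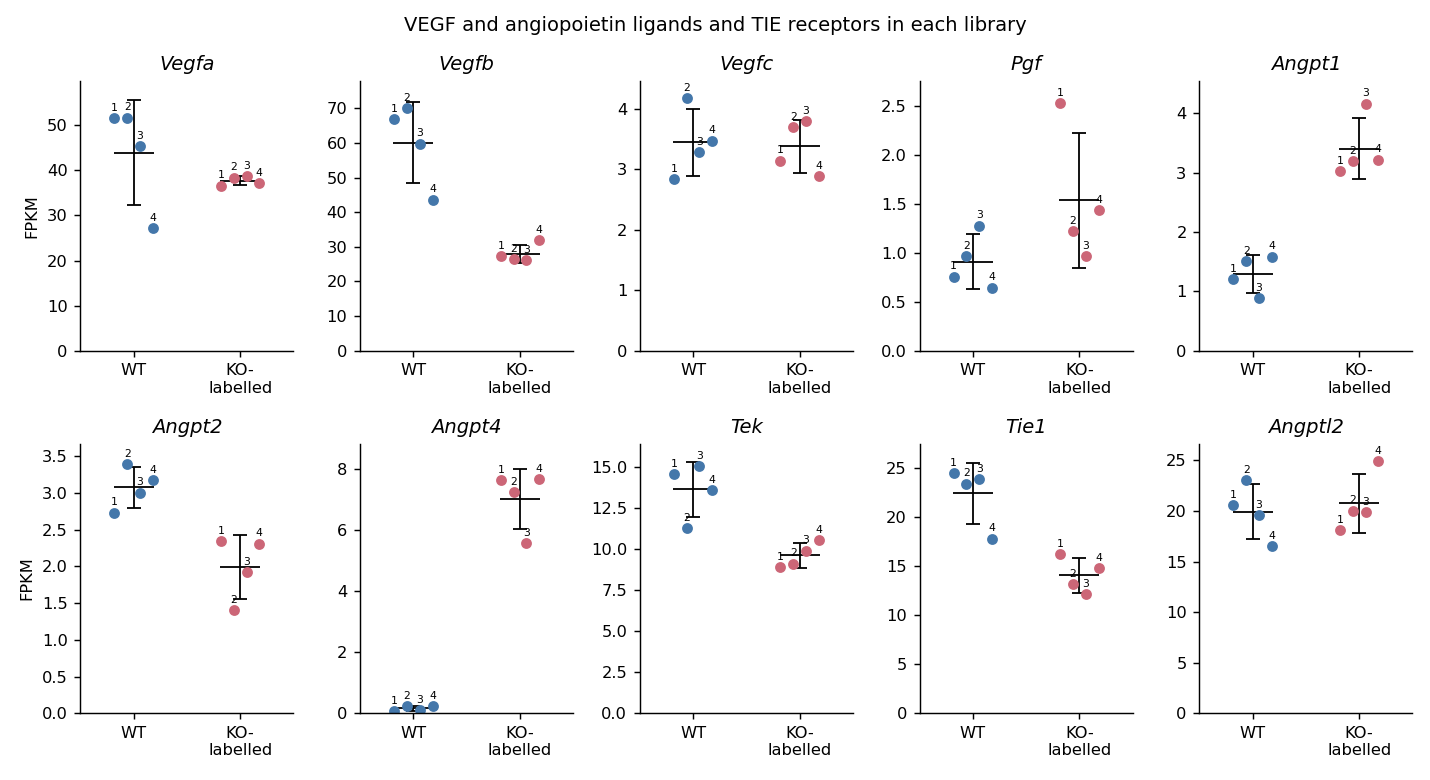
FPKM of each member (y axis, linear, from 0) in the 4 WT and 4 KO-labelled libraries, with points numbered by library and bars at the mean ± SD. Angpt4 stands at 0.0672 to 0.244 FPKM in WT, against 5.59 to 7.66 FPKM in KO-labelled libraries, while the groups overlap for Vegfa, Vegfc, Pgf and Angptl2.

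Among the 4 VEGF ligand members, Vegfb had the log2 fold change of greatest size. Vegfb (ENSMUSG00000024962, mm10 chromosome 19, 6982473 to 6987651, minus strand) encodes a ligand of the Flt1 receptor linked to fatty acid uptake. WT1 to WT4 held 66.9, 70.0, 59.8 and 43.7 FPKM. The KO-labelled values were 27.4, 26.4, 26.1 and 31.9 FPKM in the same order. Every KO-labelled library was below every WT library, with WT4 and KO4 nearest to each other. The means were 60.1 ± 11.8 and 27.9 ± 2.68 FPKM (SD, n = 4 each), a WT to KO-labelled ratio of 2.15. On the log2 scale the difference was -1.07 ± 0.15 (moderated SE), and -0.81 under the sum scaling. The values rested on 1014 to 2737 recovered reads per library.

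Vegfa (ENSMUSG00000023951, chromosome 17, 46016993 to 46032369, minus strand), the central growth factor for blood vessels, separated the groups less. WT1 to WT4 held 51.6, 51.7, 45.4 and 27.1 FPKM. Across KO1 to KO4 the values were 36.6, 38.4, 38.7 and 37.2 FPKM. The KO-labelled libraries lay within a narrow band, with 3 WT libraries above it and WT4 below it. The means were 44.0 ± 11.6 and 37.7 ± 0.973 FPKM, and the log2 fold change was -0.17 ± 0.19, which turned to 0.10 under the sum scaling, to 0.04 with quantile normalization and to 0.10 without WT1 and WT2. Without WT4, the library with the high macrophage sum, it was -0.39 and called lower. The direction of Vegfa thus depended on which WT libraries entered and on the scaling.

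Vegfc and Pgf were minor components in both groups. Vegfc (ENSMUSG00000031520, chromosome 8, 54077606 to 54187096), the lymphatic growth factor, measured 2.84, 4.18, 3.28 and 3.47 FPKM across WT1 to WT4. KO1 to KO4 held 3.14, 3.70, 3.79 and 2.89 FPKM, from 175 to 245 reads over the 8 libraries. The groups overlapped across nearly their whole range, with a log2 fold change of -0.02 ± 0.12 that was 0.25 under the sum scaling and 0.02 with median-of-ratios scaling, and its sign was positive in 6 of 20 alternatives. Pgf (ENSMUSG00000004791, chromosome 12, 85166635 to 85177790, minus strand), placental growth factor, measured 0.757, 0.963, 1.28 and 0.644 FPKM across WT1 to WT4. The KO-labelled values were 2.53, 1.22, 0.967 and 1.43 FPKM in the same order, from 46 to 214 reads over the 8 libraries. KO1 was the highest, and KO2 and KO3 lay within the WT range. The log2 fold change of Pgf was 0.50 ± 0.23, 0.29 without KO1, which is also the library with the highest epididymis marker sum, and 0.90 under the sum scaling. With 0.1 added in place of 0.5 it was 0.65 as deposited.

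The 4 VEGF ligand members summed to 108 ± 23.5 FPKM in WT and 70.6 ± 1.88 FPKM where KO was labelled, without overlap. Within that sum Vegfa took 40.1% ± 2.70 and 53.5% ± 2.29, and Vegfb took 55.7% ± 1.76 and 39.5% ± 2.70, both without overlap. With Vegfd added, which is no member but completes the family, the 5 ligands came to 127 ± 23.4 FPKM in WT, against 112 ± 7.03 FPKM in KO-labelled libraries. These groups overlapped through WT4 (94.6 FPKM), while WT1 to WT3 were at 128 to 148 FPKM. Shares within a library do not depend on its scaling. Vegfb made up 46.2% to 48.3% of the 5-ligand sum in the WT libraries and 21.5% to 29.0% in the KO-labelled ones. Vegfa had shares of the 5-ligand sum of 34.1% ± 3.73 and 33.7% ± 2.06 (SD, n = 4 each), with overlapping groups. Vegfd made up 11.9% to 20.8% in WT, against 33.2% to 43.1% in KO-labelled libraries. The ratio of Vegfb to Vegfa was above 1 in every WT library (1.30 to 1.61) and below 1 in every KO-labelled library (0.674 to 0.856). The order of these ligands was Vegfb, Vegfa, Vegfd in each of the 4 WT libraries.

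**Figure D2:**
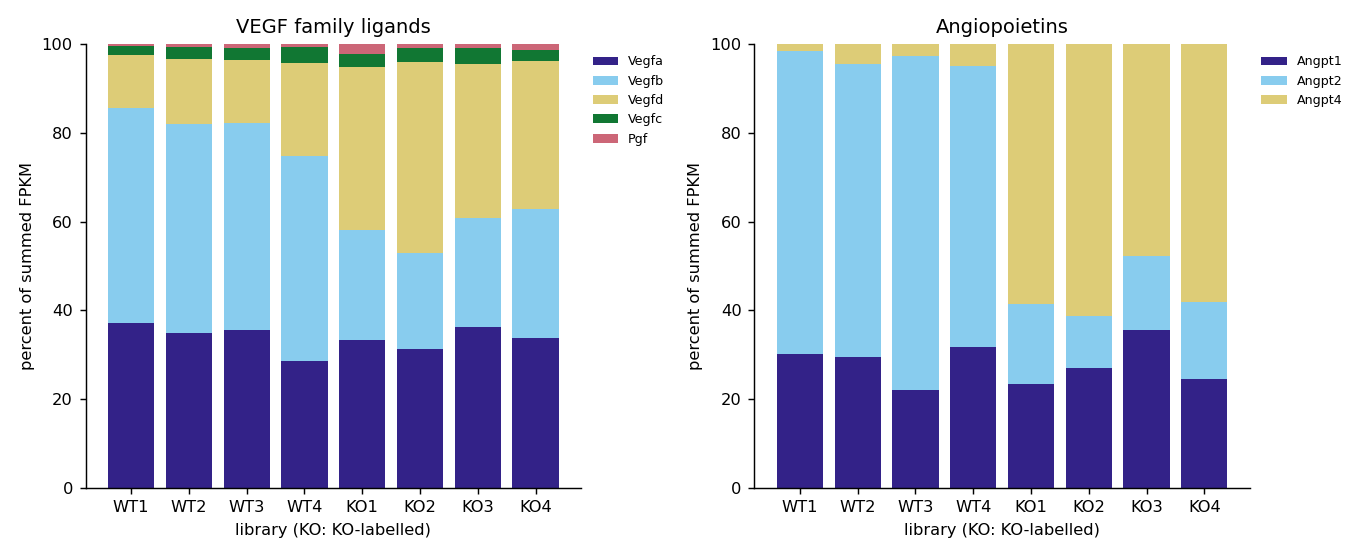
Share of each gene (y axis, percent of the summed FPKM of its family) in each library (x axis), for 5 VEGF family ligands on the left and 3 angiopoietins on the right. Vegfb takes 46.2% to 48.3% in WT, against 21.5% to 29.0% in KO-labelled libraries, and Angpt4 takes 1.68% to 4.87% and 47.9% to 61.2%.

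Vegfd, tested as a gene of the wider pathway, measured 16.4, 21.6, 18.3 and 19.7 FPKM across WT1 to WT4. Across KO1 to KO4 the values were 40.6, 52.9, 37.0 and 36.5 FPKM. It rose from 19.0 ± 2.18 to 41.8 ± 7.63 FPKM (log2 fold change 1.11 ± 0.14, limma adjusted p = 0.000684), higher in 4 of 4 KO-labelled libraries. The pathway lists were chosen with earlier results of these data known, so adjusted p-values of their genes are no fresh test. Ccbe1, a secreted factor needed for the processing of VEGF-C, rose from 0.817 ± 0.350 to 2.14 ± 0.363 FPKM (1.04 ± 0.21, limma adjusted p = 0.00722). The processing protease gene Adamts3 was below the filter, at 0.101 to 0.277 FPKM over the 8 libraries. Of the 6 lymphatic endothelial markers, 3 were tested and 1 rose, and their summed level overlapped between the groups (13.8 to 25.2 FPKM in WT, 20.2 to 24.8 FPKM in the KO-labelled libraries), with Ccl21a at 0 in some libraries.

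The angiopoietins differed by member. Angpt4 (ENSMUSG00000027460, chromosome 2, 151911210 to 151945337, plus strand) had the largest log2 fold change of the 10 genes. WT1 to WT4 held 0.0672, 0.232, 0.112 and 0.244 FPKM, from 4, 13, 6 and 14 reads. KO1 to KO4 held 7.63, 7.25, 5.59 and 7.66 FPKM, from 519, 415, 316 and 443 reads. The groups were far apart, and within the KO-labelled group KO3 was lowest. The means of 0.164 ± 0.0878 and 7.03 ± 0.981 FPKM gave a ratio of 42.9. This was a log2 fold change of 3.50 ± 0.14. Its size depended on how the few WT reads were handled: it was 2.78 with a pseudocount of 1, 4.81 with 0.1, 5.01 under the sum scaling and 5.51 by voom on recovered reads.

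The 250 bases before the RefSeq start site of Angpt4 (GRCm38.p6, chr2:151910957-151911206, plus strand) are shown because this gene had the highest fold change of the members, with those of Vegfb (chr19:6987652-6987901, minus strand), which had the lowest fold change. Capitals mark the letters GCGTG or CACGC, a core that hypoxia-inducible factors can bind, on either strand.

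Angpt4: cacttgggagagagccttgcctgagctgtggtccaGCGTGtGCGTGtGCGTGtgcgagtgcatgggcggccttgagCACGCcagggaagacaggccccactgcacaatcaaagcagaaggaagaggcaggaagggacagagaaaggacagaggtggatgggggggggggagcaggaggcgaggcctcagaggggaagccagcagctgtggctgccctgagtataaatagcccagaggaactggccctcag

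Vegfb: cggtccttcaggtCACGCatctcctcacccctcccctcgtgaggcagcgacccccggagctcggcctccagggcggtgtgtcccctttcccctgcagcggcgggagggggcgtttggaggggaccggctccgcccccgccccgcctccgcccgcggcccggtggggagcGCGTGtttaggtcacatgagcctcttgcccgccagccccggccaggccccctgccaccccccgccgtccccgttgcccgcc

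In Angpt4 the core occurred 4 times, with first bases 215, 209, 203 and 174 bases before the start, and in Vegfb 2 times, 237 and 81 bases before it. The RefSeq promoter table held 8 of the 10 members in 10 entries, without Angpt1 and Angpt2. Of these entries, 4 held a HIF core (ACGTG or GCGTG on either strand, which can overlap each other), beside 38.6% of 32851 promoter windows of the same length. The core of the antioxidant response element, TGACNNNGC on either strand, was in 3 of the 10 entries (Vegfc, Angptl2 and 1 of 2 for Pgf), beside 10.2% of all windows, and was not in the windows of Angpt4 or Vegfb. A match of these letters is a description of the sequence only.

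Angpt1 (ENSMUSG00000022309, chromosome 15, 42424723 to 42676977, minus strand), the stabilizing TIE2 agonist, measured 1.21, 1.51, 0.880 and 1.59 FPKM across WT1 to WT4. The KO-labelled values were 3.03, 3.19, 4.16 and 3.22 FPKM in the same order, from 105 to 525 reads over the 8 libraries. All KO-labelled libraries were above all WT libraries, and KO3 was the highest. The means were 1.29 ± 0.322 and 3.40 ± 0.515 FPKM, with a log2 fold change of 1.13 ± 0.15, 1.61 under the sum scaling. With a pseudocount of 0.1 it was 1.35 as deposited, so the sum scaling does not act on this low gene through library size alone. An antisense gene, Gm17473, covers 14.2% of the exon length of Angpt1 and had at most 3 reads in any library. Pericyte and smooth muscle markers, of cells known to make Angpt1, summed to 195 to 289 FPKM in WT, against 180.5 to 202 FPKM in KO-labelled libraries, with 2 of 10 higher and 2 lower. Stromal progenitor markers summed to 247 to 321 and 177 to 243 FPKM, with 2 of 7 lower and none higher. The part of these cells in the Angpt1 values was not tested.

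Angpt2 (ENSMUSG00000031465, chromosome 8, 18690263 to 18741562, minus strand), made by endothelial cells during remodelling, went the other way. WT1 to WT4 held 2.73, 3.39, 3.00 and 3.17 FPKM. Across KO1 to KO4 the values were 2.34, 1.40, 1.92 and 2.31 FPKM, from 127 to 300 reads over the 8 libraries. The groups did not overlap, with WT1 and KO1 closest. Its log2 fold change was -0.53 ± 0.14, and -0.36 under the sum scaling. Its call in the fit over all genes was lost under that scaling, without WT1 and WT2, without WT2 and without KO3.

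The make-up of the angiopoietin pool differed accordingly. Angpt2 made up 63.4% to 75.2% of the summed angiopoietin FPKM in WT, against 11.9% to 18.02% in KO-labelled libraries. Angpt4 made up 3.47% ± 1.499 in WT, against 56.5% ± 5.89 in KO-labelled libraries (SD, n = 4 each). Angpt1 had a share of 28.3% ± 4.29 and 27.6% ± 5.60, with overlapping groups. The ratio of Angpt2 to Angpt1 was 2.001 to 3.41 in WT, against 0.440 to 0.773 in KO-labelled libraries. The 3 angiopoietins summed to 4.53 ± 0.619 and 12.4 ± 0.779 FPKM, and per unit of Tek this sum was 0.341 ± 0.0890 and 1.30 ± 0.119.

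Both TIE receptor genes were lower in the KO-labelled libraries. Tek (ENSMUSG00000006386, chromosome 4, 94739289 to 94874976, plus strand), the angiopoietin receptor, measured 14.6, 11.3, 15.1 and 13.6 FPKM across WT1 to WT4. KO1 to KO4 held 8.90, 9.12, 9.90 and 10.53 FPKM. The groups did not overlap, though WT2 and KO4 were close. For Tek the log2 fold change was -0.48 ± 0.10, and -0.22 under the sum scaling, where its call was lost. Tie1 (ENSMUSG00000033191, chromosome 4, 118471191 to 118490061, minus strand), the co-receptor, measured 24.5, 23.4, 23.9 and 17.8 FPKM across WT1 to WT4. The KO-labelled values were 16.2, 13.2, 12.2 and 14.8 FPKM in the same order. WT4 was well below the other WT libraries and near KO1. For Tie1 the log2 fold change was -0.65 ± 0.13, -0.39 under the sum scaling and -0.54 without WT1 and WT2, where its call was lost.

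Set against the endothelial marker sum of the same library, neither receptor had a lower mean in the KO-labelled group. Tek was 2.30% to 3.82% of that sum in WT, against 3.14% to 4.0% in KO-labelled libraries. Tie1 was 4.77% to 5.01% in WT, against 4.90% to 5.72% in KO-labelled libraries. The groups overlapped for both ratios. The marker sum holds genes at different levels and is led by the most abundant ones, so it is a scale and not a cell count. The ratio of Tie1 to Tek was 1.66 ± 0.317 and 1.48 ± 0.251, again with overlap.

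**Figure D3:**
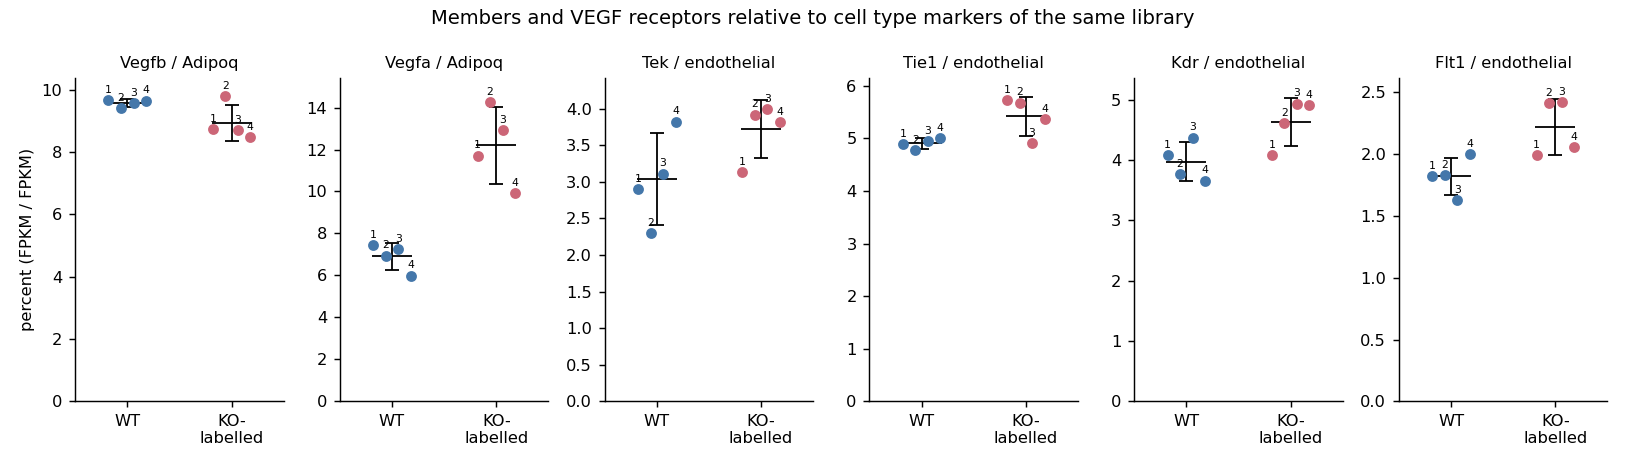
Vegfb and Vegfa as a percentage of Adipoq, and Tek, Tie1, Kdr and Flt1 as a percentage of the summed endothelial markers (y axes, FPKM over FPKM of the same library), with numbered libraries and the mean ± SD. Vegfb to Adipoq lies at 9.41% to 9.67% in WT, against 8.49% to 9.80% in KO-labelled libraries, while Vegfa to Adipoq lies at 5.99% to 7.45% and 9.91% to 14.2%. Adipoq is the gene nearest to Vegfb in profile, so the steady ratio of Vegfb follows from that.

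Angptl2 (ENSMUSG00000004105, chromosome 2, 33216069 to 33247717, plus strand) encodes a secreted protein related to the angiopoietins that does not bind TIE2. WT1 to WT4 held 20.6, 23.0, 19.6 and 16.5 FPKM. Across KO1 to KO4 the values were 18.1, 20.0, 19.9 and 24.9 FPKM. The groups overlapped, with the lowest value in WT4 and the highest in KO4. The log2 fold change was 0.06 ± 0.13, 0.33 under the sum scaling, and below 0 without WT4 (-0.03) or without KO4 (-0.03).

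By mean FPKM, the order in WT was Vegfb, Vegfa, Tie1, Angptl2, Tek, Vegfc, Angpt2, Angpt1, Pgf and Angpt4. Each gene was above the next in 4 of 4 WT libraries, except Angpt1 over Pgf, which held in 3. The steps from Tie1 to Angptl2 and from Vegfc to Angpt2 were small, with mean log2 ratios of 0.17 ± 0.12 and 0.15 ± 0.10 (SD, n = 4). In the KO-labelled libraries the order was Vegfa, Vegfb, Angptl2, Tie1, Tek, Angpt4, Angpt1, Vegfc, Angpt2 and Pgf. There Angpt1 was above Vegfc in 2 of 4 libraries, so these did not differ beyond their spread, and Angpt2 was above Pgf in 3. Angpt4 thus stood last of 10 in WT and in place 6 in the KO-labelled libraries.

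**Figure D4:**
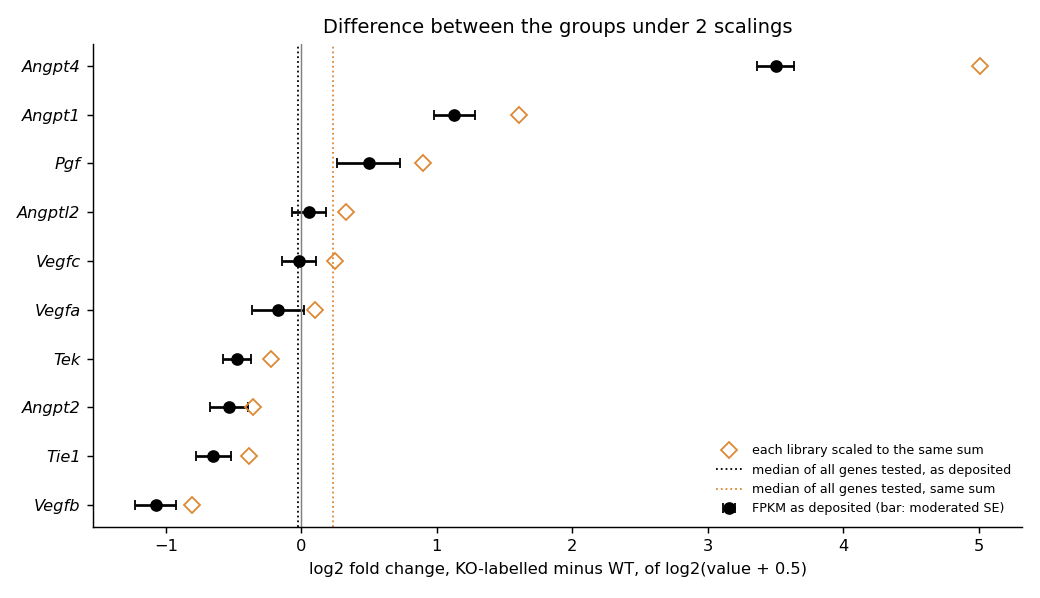
Log2 fold change of each member (x axis, KO-labelled minus WT, on the log2(value + 0.5) scale), as deposited with its moderated SE (black) and with each library scaled to the same sum (diamonds), with dotted lines at the median of all genes tested. As deposited Vegfa is at -0.17 and Vegfc at -0.02, and under the sum scaling they are at 0.10 and 0.25. For low genes part of the move comes from the fixed 0.5, which is smaller beside the scaled values.

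For the 3 members with a log2 fold change of at least 1 in size, the genes with the nearest profile over the 8 libraries were taken, by the root mean square difference of centred log2 values. The profile of Vegfb was nearest to Adipoq, the adiponectin gene (0.07 log2 units), Mocs2, of molybdenum cofactor synthesis (0.08), and Plin4, a lipid droplet coat gene (0.08). Adipoq was 628 ± 127 FPKM in WT, against 314 ± 44.5 FPKM in KO-labelled libraries, and Vegfb was 9.58% ± 0.119 and 8.94% ± 0.586 of it. As Adipoq was the nearest gene, a steady ratio follows from that choice and is no separate result. The 9 adipocyte markers had log2 fold changes of -3.34 to -0.62, so such a ratio depends on the marker taken. Vegfa did not share the profile of Adipoq, at 6.92% ± 0.649 and 12.2% ± 1.84 of it with groups that did not overlap. Angpt1 was nearest to Oas1b (0.10), Ugt1a6a (0.13) and H2-T23 (0.13). Angpt4 was nearest to the carbonyl reductase gene Cbr3 (0.25), Hsd11b1, which regenerates active glucocorticoid (0.27), and the urate transporter gene Slc22a12 (0.30). A near profile here mostly means a group difference of like size.

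Around the members, 64 other genes of the pathway were followed in 7 lists, 59 of them tested. The lists were chosen with earlier results of these data known, and most genes named from them by smallest adjusted p. The adjusted p-values below are therefore no fresh test. Of these, 18 fell and 6 rose in the KO-labelled libraries (30.5% and 10.2%, beside 18.6% and 11.7% of all genes), with a median log2 fold change of -0.24 beside -0.02 for all genes. Under the sum scaling 12 fell and 12 rose, and without WT1 and WT2 9 fell and 4 rose. Without WT2 and KO1, the libraries with the highest epididymis marker sums, 13 fell and 4 rose.

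Among the 5 VEGF receptor genes, 2 fell and 1 rose (beside 18.6% and 11.7% of all genes), against 0 and 2 under the sum scaling. Flt1, the receptor of Vegfa, Vegfb and Pgf, fell from 8.26 ± 0.952 to 5.72 ± 0.179 FPKM (log2 fold change -0.49 ± 0.09, limma adjusted p = 0.00416), and under the sum scaling it was -0.24 with adjusted p = 0.0546. Kdr, the main signalling receptor of Vegfa, fell from 18.3 ± 3.68 to 12.0 ± 1.18 FPKM (-0.57 ± 0.15, limma adjusted p = 0.0220). Its groups overlapped through WT4 (13.0 FPKM) and KO4 (13.5 FPKM), and its call was lost without WT1, WT2, WT3, KO2 or KO3 (adjusted p = 0.0521 to 0.0652), under the sum scaling (0.110), with quantile normalization (0.0744), without WT1 and WT2 (0.175) and without WT2 and KO1 (0.0967). Nrp2, a co-receptor for Vegfc, rose from 5.55 ± 0.980 to 9.17 ± 0.816 FPKM (0.69 ± 0.12, limma adjusted p = 0.00388). The lymphatic receptor gene Flt4 and the co-receptor gene Nrp1 did not pass (-0.19 ± 0.14 and 0.11 ± 0.07). Flt4 itself was 2.52 ± 0.477 FPKM in WT and 2.14 ± 0.319 FPKM in KO-labelled libraries, with overlapping groups. Against the endothelial marker sum, Flt4 was 0.548% ± 0.0299 in WT, against 0.823% ± 0.0931 in KO-labelled libraries, without overlap. That sum fell from 458 ± 68.5 to 260 ± 23.8 FPKM, while the lymphatic marker sum overlapped between the groups. The higher ratio is thus not a rise of Flt4.

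In the list of TIE receptor partners, 1 of 7 genes fell and 1 rose. These shares of 14.3% each were near the 18.6% and 11.7% of all genes. Over the settings run, each count ranged from 0 to 2, with 0 and 0 without WT1 and WT2. Ptprb, the phosphatase that restrains TIE2, fell from 23.6 ± 3.81 to 14.2 ± 1.02 FPKM (-0.70 ± 0.12, limma adjusted p = 0.00395), and without WT1 and WT2 its adjusted p was 0.0571. Foxo1, a transcription factor inhibited by TIE2 signalling, rose by a narrow margin (0.36 ± 0.12, limma adjusted p = 0.0485), and the call was lost without WT1, WT2, WT4, KO3 or KO4 (adjusted p = 0.0870 to 0.121) among other settings, and its groups overlapped. Of 5 tested angiopoietin-like genes, 1 fell (20%, near the 18.6% of all genes). That gene, Angptl1, went from 1.23 ± 0.285 to 0.574 ± 0.161 FPKM (-0.68 ± 0.16, limma adjusted p = 0.0149), and its adjusted p was 0.149 without WT1 and WT2 and 0.0763 without WT2 and KO1. A gene on the opposite strand covers 16.4% of its exon length. Opposite-strand genes also cover 2.08% to 8.45% of the exon length of Foxo1, Ccbe1, Plcg1, Dll4, Nid2 and Ndrg1. Among them are the protein-coding genes Zhx3 (over Plcg1) and Rtraf (over Nid2). Without a known strand setting the reads of overlapping genes cannot be told apart.

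In the list of VEGF receptor signalling 4 of 13 tested genes fell and none rose (30.8% lower, beside 18.6% of all genes). Under the sum scaling 2 fell and 2 rose, with no filter 1 rose, and without WT1 and WT2 2 fell. Nos3, the endothelial nitric oxide synthase, fell from 13.4 ± 3.26 to 4.297 ± 0.625 FPKM (-1.51 ± 0.17, limma adjusted p = 0.000511). An antisense gene covers 25.2% of its exon length, and the opposite-strand protein-coding gene Atg9b covers 7.12%. The adaptor gene Nck1 fell by 0.57 on the log2 scale and the phospholipase gene Plcg1 by 0.40, the latter without a call under the sum scaling (adjusted p = 0.154) or without WT1 and WT2 (0.0978). In the list of VEGF-response and tip cell genes 6 of 12 fell and none rose (50% lower, beside 18.6% of all genes). With WT1 and WT2 left out, 4 were lower. The Notch ligand gene Dll4 fell from 10.49 ± 2.70 to 3.74 ± 0.351 FPKM (-1.34 ± 0.17, limma adjusted p = 0.000896). Pdgfb, which recruits pericytes, and Nid2, a basement membrane gene, fell by 0.77 and 0.76 on the log2 scale. These 3 genes kept their calls in all 20 alternatives run. Endothelial markers were lower beside them, and the part of that in these values was not tested.

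**Figure D5:**
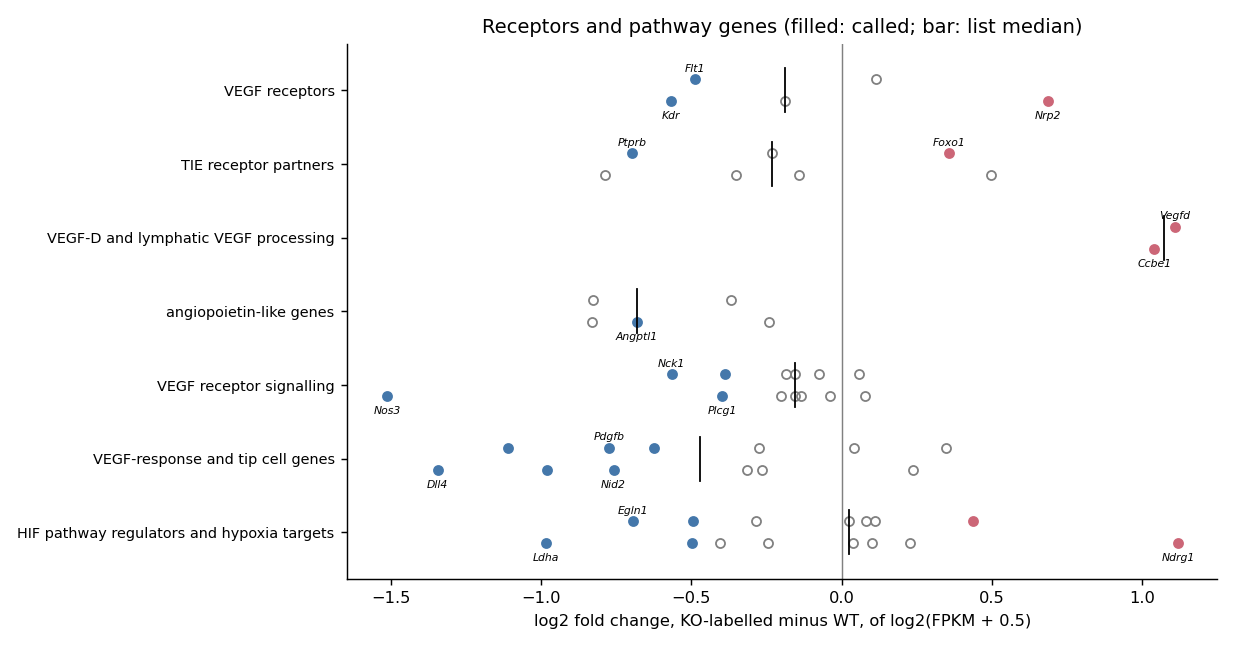
Log2 fold change (x axis, KO-labelled minus WT, on the log2(FPKM + 0.5) scale) of the tested genes in each pathway list, filled where called, with a bar at the list median. The list of VEGF-response and tip cell genes has its median at -0.47, and both tested genes of the VEGF-D list are above 1.

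Of 15 tested genes in the list of HIF regulators and targets, 4 fell and 2 rose (26.7% and 13.3%, beside 18.6% and 11.7% of all genes), with a median log2 fold change of 0.02. Under the sum scaling the counts turned to 2 lower and 4 higher, and without WT1 and WT2 they were 2 and 1. Egln1, an oxygen-sensing hydroxylase that marks HIF for degradation, fell from 19.6 ± 1.24 to 11.9 ± 0.845 FPKM (-0.69 ± 0.08, limma adjusted p = 0.000479). Ldha, lactate dehydrogenase A, fell from 188 ± 16.6 to 95.1 ± 11.8 FPKM (-0.98 ± 0.12, limma adjusted p = 0.000566). Ndrg1 rose from 10.4 ± 0.639 to 23.3 ± 2.17 FPKM (1.12 ± 0.09, limma adjusted p = 8.32e-05). Vegfa, itself a known target of this pathway, lay between these genes at -0.17.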

How the data were processed

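Poly(A) RNA of 8 fat libraries was sequenced, per the labels' protocols. The submitters' processing notes list HISAT2 2.0.5, featureCounts and mm10. No source used here gives the annotation release or the strand setting. The deposited unit is FPKM, computed by the authors for 28295 genes. Symbols were taken by gene ID (28255 matched), and coordinates (1-based) and exon lengths come from GENCODE M21. With these lengths, 97.9% of FPKM values worth 0.5 to 200 reads (97.85% in the lowest library) lay within 0.02 reads of a whole number, which gave the reads quoted. Reads in listed genes were 74.1% to 78.7% of the FPKM denominator in WT, against 62.6% to 66.1% in KO-labelled libraries.

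Limma 3.58.1 in R 4.3.3 was run on log2(FPKM + 0.5) of all 8 libraries (trend, robust, no covariate, two-sided). Benjamini-Hochberg adjustment covered the 14400 genes whose mean reached 0.5 FPKM. Fold changes on this scale understate low genes. Under the sum scaling the same 0.5 was added to larger values, so low genes are understated less there. The labels do not say which mouse gave each library, so p-values measure the spread between these libraries. The fit was tested on simulated data. The members and gene lists were chosen with earlier results of these data known. Named genes were the members, Cul3, up to 3 called genes of each pathway list by smallest adjusted p, and the 3 nearest profiles. Flt4, Nrp1 and Adamts3 were added after their values were seen. Ero1a was matched through an older symbol, and the epididymis marker Defb20 was not used. Of the other markers, 3 of 9 macrophage genes rose (463 to 1065 FPKM summed in KO-labelled libraries), 4 of 8 liver genes fell, and none of 6 mesothelial (17.5 to 56.5 FPKM in WT, 31.3 to 55.5 in KO-labelled libraries) or 3 tested epididymis genes passed. Crisp1, Adam7, Lcn5 and Lcn8 were at 0 in some libraries. Alternatives were other pseudocounts, filters and scalings, limma without trend, voom on recovered reads, a replicate block and libraries left out. Leaving out WT2 with KO1 was chosen after seeing the data. Python 3.11.15 drew on pandas 2.3.3, numpy 2.4.6 and scipy 1.17.1, with figures from matplotlib 3.10.9.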

Additional observations from a re-analysis of the deposited data

Results flagged for a closer look

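In 54 groups of 4 libraries, taken from the members and the named pathway genes, 4 values stood far from the other libraries of their group, where chance alone gives about 5%. Angpt1 was 4.16 FPKM in KO3, above the other KO-labelled libraries, and its log2 fold change without KO3 was 1.04. Tie1 was 17.8 FPKM in WT4, below the other WT libraries, and its log2 fold change without WT4 was -0.75. Flt1 was 5.99 FPKM in KO3, above the other KO-labelled libraries, and -0.51 without it. Egln1 was 17.8 FPKM in WT4, below the other WT libraries, and -0.74 without it. WT4 also had the lowest value of its group for 5 of the 10 members.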

How the results depend on the processing

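With every library at a sum of 1000000, calls numbered 4226 higher and 1190 lower, 4 members were called higher and 2 lower, 12 pathway genes rose, and Cul3 passed the threshold (log2 fold change 0.37, limma adjusted p = 0.0477). Without WT1 and WT2, 722 genes were higher and 1036 lower, with 2 members and 9 pathway genes lower. Leaving out single libraries gave 1089 (without WT1) to 1937 higher and 1858 to 2803 lower calls, with 3 to 5 members lower. Without KO3 there were 1117 higher calls. Without WT2 and KO1 there were 1184 higher and 1892 lower calls. Nothing in the labels pairs the libraries, and same-numbered libraries did not deviate together (correlations of -0.06, -0.13, 0.17 and -0.32 across genes, where genes are not independent). With the replicate block 1113 genes were higher and 1995 lower, 3 members were lower (Angpt2 lost its call), and 4 pathway genes rose and 16 fell. Of the pathway genes named, Kdr (limma adjusted p = 0.0658), Angptl1 (0.0601) and Foxo1 (0.0548) lost their calls with the block. Vegfb, Angpt1 and Angpt4 kept their direction and call in all 20 alternatives. The alternatives refit libraries that the members were chosen from. A call kept or lost by a member is therefore a description and no further support. The cause of the other changes was not tested. Few reads limit Angpt4 in WT and Pgf in both groups.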
